A study of Mus musculus with 9 samples.

Results

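The genes described here encode enzymes that write or erase histone marks and proteins that move nucleosomes. They were chosen by symbol, from the protein-coding genes of the GENCODE M1 annotation, with earlier results of these data known. Their symbols start with Kdm, Hdac, Sirt, Setd, Kat, Smarc, Chd, Arid or Ino80 followed by a number or letter. For Chd the numbered genes and *Chd1l* were taken, and genes on chromosome Y and 1 further gene were left out by the rule. That gave 88 gene entries of 22367 protein-coding genes, with 87 different symbols, because *Hdac4* is annotated as 2 separate entries. The letters Kat also took 4 genes of katanin, a protein that cuts microtubules and is not a histone modifier, and these are given as a family of their own, while totals over all members include them unless stated. The *Ino80* gene itself has no further letter in its symbol and so was no member.

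BAP1 is a nuclear deubiquitinase that removes ubiquitin from histone H2A, the H2AK119ub mark that the Polycomb complex PRC1 places. Histone demethylases, methyltransferases, acetyltransferases and deacetylases change the marks on histone tails, and the remodelers of the SWI/SNF, ISWI, CHD and INO80 types use ATP to slide, evict or exchange nucleosomes. Most of these proteins work as subunits of large complexes that many cell types share, and several families also have members used mainly in muscle or neurons.

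The question was where BAP1 was bound in Ba/F3, a mouse cell line of B lineage precursors that grows in IL-3, here supplied by WEHI conditioned medium. ChIP-Seq was done in wild type Ba/F3 cells with an antibody against BAP1, and in Ba/F3 cells that stably express mouse BAP1 with a triple FLAG tag and are kept under puromycin, with an antibody against FLAG. Each of these 2 immunoprecipitations was sequenced once, and the deposited data are 1 list of peaks joined from both. The series also holds 4 input DNA samples and 3 samples of H2AK119ub, including Cas9 knockout clones of *Bap1* grown from single cells, and their signal was not analysed here.

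The list held 13164 peaks, each 200 bp wide, with a start and an end but no height, score or p-value. Gene-proximal here means that the middle of a peak was no more than 1 kb from an annotated transcription start site (TSS), which held for 10073 of the peaks. A gene is said to be bound, or to have a peak, when this was true of at least 1 TSS of that gene. Positions are those of the middle of a peak relative to the nearest TSS of the gene, with upstream negative. There is no replicate of the list and its depth is unknown, so no test between groups could be run, and the 95% Wilson intervals given cover counting error only. The threshold of the peak caller is not given in the sources used here. A gene without a peak may lie under that threshold, and the list says nothing of how much RNA a gene makes.

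The peaks of 7 members show what was bound. They are the peak nearest to a TSS for the first member by symbol with a peak in the Kdm, Hdac, Sirt, Kat, Smarc and Arid families, and for *Kat5*, which had 2 peaks and was chosen after its motifs were seen. Only the longest stretch of each peak outside annotated exons is printed. For *Setd1a* that stretch was 41 bases and for *Ino80b* 0, so neither is shown. The sequences are from the mm9 (NCBIM37) genome, written 5′ to 3′ on the strand of the gene. Capitals mark complete matches, on either strand, to the 10 motifs searched, namely ETS, with the letters CCGGAAGT, SP with GGGCGG, NRF1 with GCGCATGCG, YY1 with AAGATGGCG and ZNF143 with ACTACAATT. The core of the cyclic AMP response element (CRE core) was searched as TGACGT, the E-box as CACGTG, the site of NFY as CCAAT, that of FOXK factors as TGTTTAC and the TATA box as TATAAA. Overlapping matches are merged in capitals.

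The *Kdm1a* stretch, chr4:136158639-136158803 on the minus strand, ends just before the TSS of this histone H3K4 demethylase and holds an NFY match.
Kdm1a: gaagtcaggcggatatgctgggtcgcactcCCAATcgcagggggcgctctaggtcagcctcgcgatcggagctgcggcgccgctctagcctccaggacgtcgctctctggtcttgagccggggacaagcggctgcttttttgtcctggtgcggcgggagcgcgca
The *Hdac1* stretch, chr4:129219958-129220068 on the minus strand, lies before the TSS of this class I deacetylase and holds NFY and SP matches.
Hdac1: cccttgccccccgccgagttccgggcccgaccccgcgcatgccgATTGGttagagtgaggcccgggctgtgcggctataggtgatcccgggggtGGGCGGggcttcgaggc
The *Sirt1* stretch, chr10:62801799-62801912 on the minus strand, holds SP and E-box matches before the TSS of this NAD-dependent deacetylase.
Sirt1: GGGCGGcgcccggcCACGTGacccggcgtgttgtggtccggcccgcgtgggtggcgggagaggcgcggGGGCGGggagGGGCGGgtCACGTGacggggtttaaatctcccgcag
The *Kat2a* stretch, chr11:100573780-100573854 on the minus strand, shows a peak with none of the motifs, at the gene of the acetyltransferase of the SAGA complex.
Kat2a: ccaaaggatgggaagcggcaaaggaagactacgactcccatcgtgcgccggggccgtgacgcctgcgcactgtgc
The *Kat5* stretch, chr19:5610051-5610142 on the minus strand, has an ETS match that overlaps a CRE core, at the gene of the TIP60 acetyltransferase.
Kat5: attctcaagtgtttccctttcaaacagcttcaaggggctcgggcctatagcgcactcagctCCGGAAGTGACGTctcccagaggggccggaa
The *Smarca2* stretch, chr19:26679421-26679620 on the plus strand, is a whole peak of 200 bases before the TSS of the BRM ATPase and holds SP matches.
Smarca2: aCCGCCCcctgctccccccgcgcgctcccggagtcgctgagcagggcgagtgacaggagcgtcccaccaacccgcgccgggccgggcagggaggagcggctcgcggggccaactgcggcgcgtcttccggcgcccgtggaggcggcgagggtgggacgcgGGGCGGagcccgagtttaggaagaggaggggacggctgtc
The *Arid1a* stretch, chr4:133312685-133312866 on the minus strand, ends just before the TSS of this DNA-binding BAF subunit and holds an SP match.
Arid1a: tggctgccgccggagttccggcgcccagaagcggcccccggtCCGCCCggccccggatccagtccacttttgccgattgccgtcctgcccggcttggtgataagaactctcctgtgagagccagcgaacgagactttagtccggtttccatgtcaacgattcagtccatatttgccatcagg

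Most of the chromatin genes had a BAP1 peak at a TSS. Of the 88 entries, 72 (81.8%, interval 72.5 to 88.5) had 1 or more gene-proximal peaks, beside 39.6% of all protein-coding genes (8850 of 22367). Without the 4 katanin genes the count was 68 of 84, or 81.0%. Of the members, 47 had 1 peak and 25 had 2 or more (28.4%), beside 10.1% of all protein-coding genes with 2 or more. Both shares count bound and unbound genes. Among bound genes only, 25 of 72 members had 2 or more, beside 2256 of 8850. The members had 100 gene-proximal peaks in total. The share with a peak was above that of all genes in each of the 9 families, but some intervals took in the 39.6% of all genes. Those were Hdac (58.3%, interval 32.0 to 80.7) and Kat without katanin (66.7%, interval 20.8 to 93.9). The interval of Chd (70.0%) began at 39.7. With 1 TSS per gene Hdac was at 41.7% and Chd at 50.0%, beside 37.0% of all genes. Of the 12 histone deacetylase entries 7 had a peak, with *Hdac4* counted as 2 unbound entries although a peak lay at its RefSeq start, as given below.

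**Figure D1:**
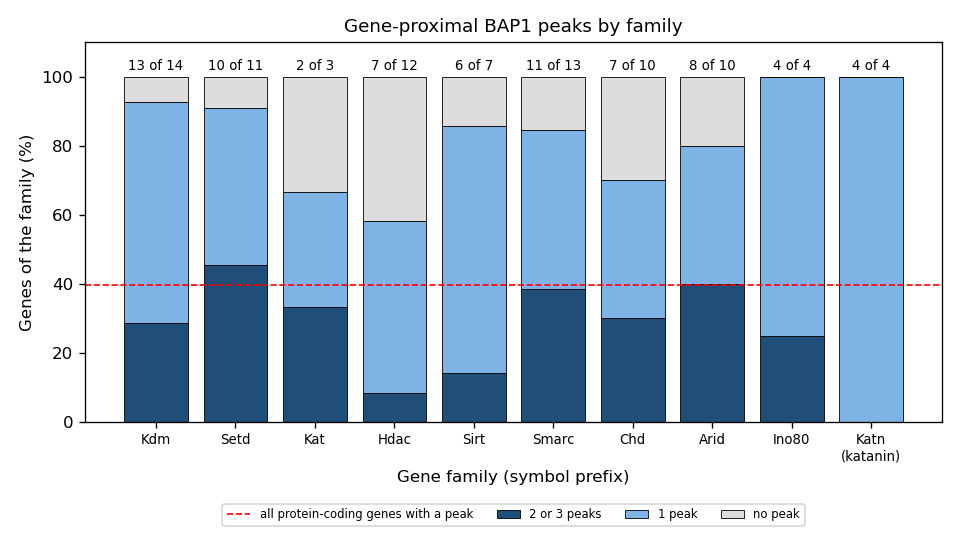
Share of each family (x axis, by symbol prefix) with 2 or 3 gene-proximal BAP1 peaks, 1 peak or no peak, as percent of the genes of the family (y axis), with the count of genes with a peak above each bar. The dashed line is the 39.6% of all protein-coding genes with a peak, and the part of the Hdac bar without a peak counts *Hdac4* as 2 entries.

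Among the lysine demethylases of the Kdm family, 13 of 14 genes had a peak. *Kdm1a*, *Kdm5a*, *Kdm5b* and *Kdm5c*, which remove methyl groups from H3K4, were all bound, as were *Kdm2a* and *Kdm2b*, which act on H3K36. The same held for the H3K9 demethylases *Kdm3a* and *Kdm3b* and for *Kdm4a*, *Kdm4b*, *Kdm4c* and *Kdm4d*, which act on H3K9 and, for the first 3 of them, H3K36. The H3K27 demethylases were split, since *Kdm6a* on chromosome X had a peak 129 bp upstream of its TSS and *Kdm6b* on chromosome 11 had none.

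*Kdm6b* was a near miss of the 1 kb window. Its nearest peak lay 1738 bp upstream of an annotated TSS at chr11:69227177, and 3 more peaks lay in its introns. It was counted as bound with a window of 2 kb. The peak of *Kdm3a* lay at -592 bp, the farthest from a TSS of all 72, and was lost with a window of 500 bp.

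*Kdm2b* was the member with the most scattered binding. It encodes the CXXC protein that brings a variant Polycomb complex to CpG islands, and its 22 annotated TSSs fell into 12 promoter groups, in which neighbouring TSSs lie within 1 kb of each other. Of these groups 2 were bound, and the 3 peaks spanned 114747 bp on chromosome 5. Those at chr5:123464851-123465050 and chr5:123465055-123465254 lay at 139 and -65 bp of the upstream TSS, where *Orai1*, a calcium channel gene, starts on the opposite strand. The third peak, at chr5:123350308-123350507, lay at -43 bp of an internal TSS. *Kdm2a* had peaks at 90 and -293 bp, *Kdm3b* at -100 and 324 bp, and *Kdm5a* at -10 and -39 bp of 2 different TSSs, with *Ccdc77* on the other side.

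Of the methyltransferase family Setd, 10 of 11 genes had a peak, and 5 had 2. *Setd1a*, the catalytic subunit of an H3K4 methyltransferase complex, had peaks at -72 and 7 bp, each at a TSS of its own. Its paralog *Setd1b* had no peak within 1 kb. The nearest lay 3774 bp upstream of the TSS at chr5:123592202, 2 others lay in its introns, and it was counted as bound with a window of 5 kb. *Setd2*, which trimethylates H3K36, had peaks on either side of its TSS, at -227 and 347 bp. *Setd8*, which monomethylates H4K20, had peaks at 2 promoters 6747 bp apart, at -87 and -114 bp of their TSSs.

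*Setd5* had peaks at -52 and -33 bp of 2 TSSs, beside the start of the noncoding *Gt(ROSA)26Sor* gene. *Setd3*, an actin histidine methyltransferase, had both peaks upstream, at -71 and -332 bp. *Setd4*, *Setd6*, *Setd7*, *Setdb1* and *Setdb2* had 1 each. That of *Setd7*, an H3K4 monomethyltransferase, lay far out at -454 bp, and a further peak lay inside the gene, in an exon annotated as 3′ UTR. The other 4 lay within 60 bp of a TSS, at -3, -26, -55 and -55 bp.

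The Kat symbols of this annotation covered only 3 acetyltransferases. *Kat2a* had 1 peak at 4 bp and *Kat5* had 2, at 8 and -261 bp. *Kat2b*, the PCAF paralog of *Kat2a*, had none. Its nearest peak lay 30033 bp downstream of an internal TSS at chr17:53798720, at another gene, *Sgol1*. The katanin genes, microtubule-severing proteins outside this group by function, were bound as well, for example *Katna1* at -46 bp and *Katnal1* at 56 bp.

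The histone deacetylases are given by class, with few genes in each, and a difference between classes was not tested. The calls depended on the annotation. *Hdac3* and *Hdac5* lost their peak with 1 TSS per gene, and *Hdac4* gained a peak with its RefSeq start. All 4 genes of class I had a peak: *Hdac1* at -11 bp, *Hdac2* at -329 bp, *Hdac3* at -63 bp and *Hdac8* at -1 bp. Both class IIb genes were bound, *Hdac6*, a tubulin deacetylase, at -214 bp and *Hdac10*, a polyamine deacetylase, at -25 bp. Of class IIa, the signal-responsive deacetylases best known from muscle, neurons and lymphocytes, only *Hdac5* was bound in this annotation, with overlapping peaks at 4 and -82 bp. *Hdac11*, the single class IV gene, had no peak, with the nearest 39784 bp upstream at *Nup210*.

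The other class IIa genes were not alike. *Hdac7* had no peak within 1 kb and its nearest, 6625 bp upstream of the TSS at chr15:97645294, lay in its own intron. *Hdac9* had its nearest peak 518039 bp away, at *Snx13*. From its RefSeq start placed on mm9, at chr12:35601767, the nearest peak was 130026 bp away, so *Hdac9* was unbound there too. The longer *Hdac4* entry had its nearest peak 31950 bp upstream of the TSS at chr1:94044970, and the second entry, which is a fragment, 126386 bp away. The RefSeq start of *Hdac4*, placed on mm9 by an exact match of its promoter sequence, was at chr1:94076918, and there the same peak lay 2 bp upstream. With that start, *Hdac4* was bound.

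Of the 7 sirtuins, NAD-dependent deacylases, 6 had a peak. The nuclear *Sirt1*, *Sirt6* and *Sirt7* were bound at -29, -50 and 3 bp, with a second peak of *Sirt7* at 282 bp. The mainly cytoplasmic *Sirt2* was bound at -153 bp, next to *Nfkbib*. Among the mitochondrial sirtuins, *Sirt3* and *Sirt4* were bound at -64 and -20 bp, while *Sirt5* had no peak and its nearest lay 26667 bp upstream of the TSS at chr13:43460882.

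Of the 13 Smarc genes, 11 were bound. Both ATPases of SWI/SNF had 2 peaks, *Smarca2* (BRM) at -130 and -718 bp of 2 promoters and *Smarca4* (BRG1) at -131 and 29 bp. The ISWI ATPases were split, with *Smarca5* (SNF2H) bound at -126 bp and *Smarca1* (SNF2L), on chromosome X, 315723 bp from its nearest peak. *Smarcad1* had 1 peak at 91 bp and *Smarcal1*, an annealing helicase of stalled replication forks, 2 at -102 and -134 bp of different TSSs.

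The core subunits of SWI/SNF were bound at *Smarcb1* (-5 bp), *Smarcc1* (-30 bp), *Smarcc2* (334 bp) and *Smarce1* (-13 bp). The 3 paralogs of the BAF60 subunit differed, as *Smarcd1* had peaks at -45 and 253 bp, *Smarcd2* at -146 and -312 bp, and *Smarcd3* none. The nearest peak to *Smarcd3*, which is known from heart and skeletal muscle, lay 9157 bp downstream of the TSS at chr5:24101664, at *Chpf2*.

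The CHD remodelers were bound at 7 of 10 genes. *Chd1* and *Chd2*, of subfamily I, had 2 peaks each, at -70 and 273 bp and at -286 and -412 bp. *Chd4*, the ATPase of the NuRD complex, had 3 peaks, at -8, 6 and 456 bp of 3 TSSs. *Chd3*, its paralog, had 1 at 432 bp, the farthest downstream of all nearest peaks. *Chd5*, the third of that subfamily and known from neurons and testis, had none, and its nearest lay 12835 bp upstream, at *Rpl22*. *Chd1l* was bound at 37 bp.

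Subfamily III was split in this annotation. *Chd6* and *Chd9* had a peak at -255 and 61 bp, *Chd7* and *Chd8* had none, and the nearest to *Chd7* lay 42833 bp upstream of the TSS at chr4:8617553. For *Chd8* the nearest peak lay 6776 bp upstream of the TSS at chr14:52857466. The RefSeq start of *Chd8* placed on mm9 was at chr14:52877435, with a peak 54 bp upstream, so *Chd8* was bound at that start.

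Of the ARID genes, which share an AT-rich interaction domain, 8 of 10 were bound. The BAF subunits *Arid1a* and *Arid1b* had 2 and 3 peaks, at -491 and -82 bp for *Arid1a* and at -59, -289 and 466 bp for *Arid1b*. Both genes had 2 promoter groups within 1 kb of a peak, but all 3 of these *Arid1b* peaks lay nearest to its first group. *Arid1b* also had 2 distal peaks in its introns. *Arid2*, of PBAF, had 1 peak at -22 bp. *Arid3a*, a factor that binds the immunoglobulin heavy chain locus, and *Arid3b* had 1 each, at -106 and -39 bp, with 2 and 1 further peaks in their introns.

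*Arid4a*, of the SIN3 complex, had 2 adjoining peaks at -519 and -319 bp, and *Arid4b* had 1 at 233 bp. *Arid5a*, an RNA-binding protein, had 2 at -19 and 288 bp. *Arid5b* and *Arid3c* had none: the nearest peak lay 2189 bp downstream of the *Arid5b* TSS at chr10:67741474, in its own intron, and 7037 bp downstream of the *Arid3c* TSS at chr4:41677318, at *Dctn3*. *Arid5b* was counted as bound with a window of 5 kb. The INO80 subunits *Ino80b*, *Ino80c*, *Ino80d* and *Ino80e* all had a peak, at -156, -33, 12 and -67 bp, and *Ino80c* had another at 268 bp. The *Ino80* ATPase gene, outside the rule, had 2.

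Peaks of the same gene mostly lay close together. In 18 of the 25 members with 2 or more peaks all peaks lay within 500 bp, and the median span was 324 bp. In 14 of the 25 the peaks lay on either side of the TSS nearest to each, and in 5 the 200 bp intervals overlapped. These 3 counts and the span are not given for all genes with 2 or more peaks. They are therefore not shown to be particular to the members. When peaks within 500 bp were merged, 6.82% of the members had 2 or more, beside 2.31% of all genes, bound and unbound genes counted in both. A wide span, over 2 kb, was found in 3, *Arid1a* (2378 bp), *Setd8* and *Kdm2b*.

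The peaks sat just upstream of the TSS. The middle of the nearest peak was at a median of -45.0 bp over the 72 bound members (interval -63 to -29), beside -32.5 bp over the 8850 bound genes of the annotation. Its middle was upstream of the TSS in 56 (77.8%, beside 6634 of the 8850 bound genes) and within 100 bp in 50 (69.4%, beside 77.8%). In 8 it was more than 250 bp away (11.1%, beside 8.06%), the 3 farthest being *Kdm3a*, *Setd7* and *Chd3*. By the annotation, the middle of the nearest peak lay outside the gene in 40 members (55.6%, beside 59.5% of bound genes), in an exon of the 5′ UTR in 22 (30.6%, beside 26.7%) and in an intron in 7 (9.72%, beside 9.45%). It lay in a noncoding exon in 2 and in a coding exon in 1.

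**Figure D2:**
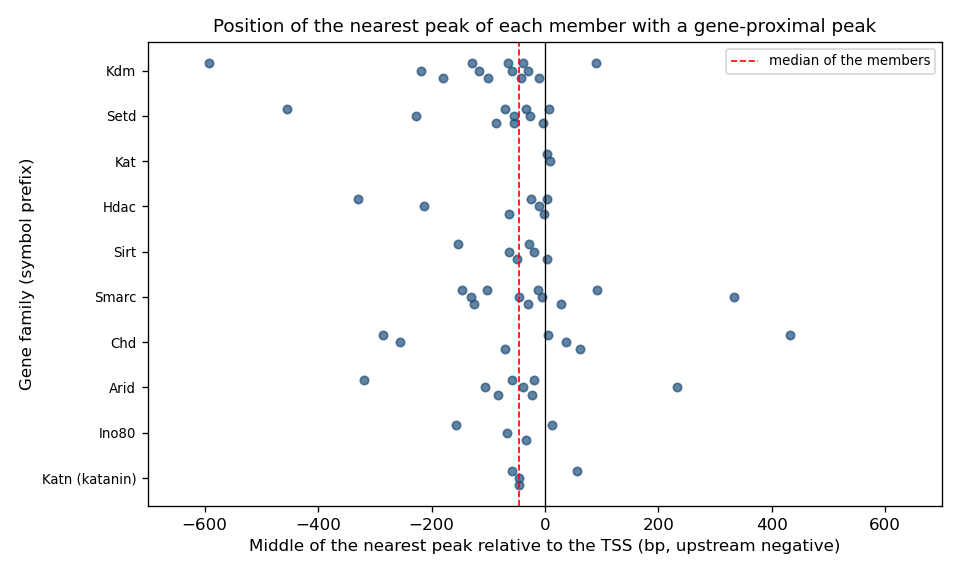
Position of the middle of the nearest peak relative to the TSS in bp (x axis, upstream negative) for each bound member, by family (y axis). Points are genes and the dashed line is their median of -45.0 bp, and the points beyond 400 bp on either side are *Kdm3a*, *Setd7* and *Chd3*.

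Where a member had several promoter groups, BAP1 was mostly bound at 1 of them. Of 55 such bound members, 49 (89.1%, beside 92.9% of bound genes with several groups) had a peak at 1 group. These 55 had 201 groups, 61 of them with a peak, beside 4912 of the 14545 groups of all bound genes with several. The most upstream group was bound in 50 (90.9%, beside 90.6%). The exceptions were *Chd2*, *Chd9*, *Katnal1*, *Kdm4c* and *Sirt1*, where an internal start was bound and the first start of this annotation was not. For *Katnal1*, *Kdm4c* and *Sirt1* a RefSeq start placed on mm9 lay within 1 kb of the bound peak, so the internal start may be the usual one. No RefSeq start of *Chd9* had a peak, and none was placed for *Chd2*. More than 1 group was bound in *Arid1a*, *Arid1b*, *Kdm2a*, *Kdm2b*, *Setd8* and *Smarca2*. In *Arid1b* and *Kdm2a* 1 of the bound groups had no peak of its own, since the peak within 1 kb of it lay nearer to the other group.

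Some of the peaks were shared with a neighbour. A protein-coding gene started on the opposite strand at the peak in 11 of the 72 bound members (15.3%, beside 24.3% of bound genes), and any other gene in 15 (20.8%, beside 32.7%). Beside the pairs named above these were *Arid4b* with *Ggps1*, *Hdac3* with *Rell2*, *Ino80e* with *Hirip3*, *Kdm4d* with *Cwc15*, *Setdb2* with *Cab39l*, *Sirt3* with *Psmd13*, *Sirt6* with *Ankrd24* and *Smarcd1* with *Gm17349*. A peak there cannot be given to 1 of both genes. Distal peaks within the gene were found in 10 members (11.4%, beside 4.28% of all genes), with 15 peaks in all. These shares are not adjusted for gene length, so the difference is not shown to be particular to the members.

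More of these promoters were rich in CpG than of all promoters, and the background share with a peak was higher where the ratio was higher. Of the members 36.4% fell in the class of high CpG ratio, beside 20.7% of all genes. The CpG ratio, observed over expected within 500 bp of the TSS of the longest transcript, had a median of 0.77 in members with a peak and 0.56 in those without, beside 0.76 and 0.29 over all genes. In the high class (0.8 or more), 29 of 32 members were bound (90.6%, interval 75.8 to 96.8), beside 76.5% of all genes of that class. In the middle class, 37 of 45 were bound (82.2%, interval 68.7 to 90.7), beside 52.8%. In the low class (under 0.4), 6 of 11 were bound (54.5%, interval 28.0 to 78.7), beside 7.99%. With the classes of all genes weighted as in the members, the background share was 55.8%, in place of 39.6%.

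The bound members of low CpG ratio were *Hdac3*, *Hdac5*, *Setd3*, *Setd4*, *Smarcal1* and *Smarcb1*. In each of them the peak lay at another TSS than that of the longest transcript. When each gene was given the highest ratio over its TSSs instead, a setting chosen after the data were seen, *Hdac5* rose from 0.30 to 0.87, *Setd3* from 0.23 to 0.96 and *Smarcb1* from 0.33 to 0.91. The 3 entries left in the low class, both of *Hdac4* and *Hdac9*, had no peak in this annotation, where only 2.99% of all genes of that class had one. The shares were then 30 of 38 in the middle class (78.9%, beside 50.6%) and 42 of 47 in the high class (89.4%, beside 75.3%), and the weighted background was 62.2%. The unbound members of the high class by this measure were *Chd5*, *Chd7*, *Hdac7*, *Kat2b* and *Smarcd3*.

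**Figure D3:**
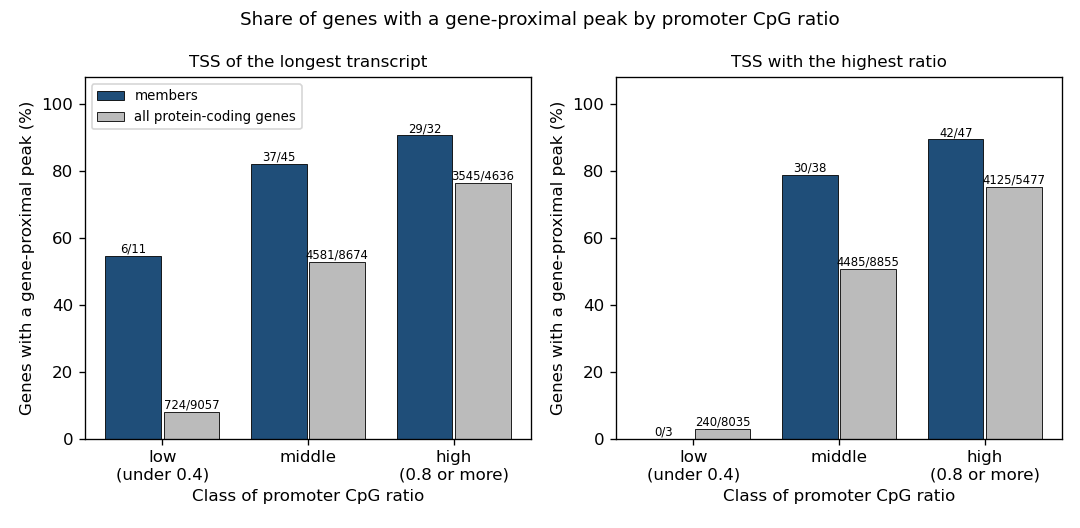
Share of genes with a gene-proximal peak (y axis, percent) by class of promoter CpG ratio (x axis) for the members and for all protein-coding genes, with the ratio taken at the TSS of the longest transcript on the left and as the highest over all TSSs on the right. Counts stand above the bars, and in the middle and high classes the members lie above all genes in both panels.

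The motifs occurred under the members' peaks in shares close to those of all gene-proximal peaks. SP matches were found in 66 of the 100 member peaks (66.0%, interval 56.3 to 74.5), beside 68.6% of the 10073 gene-proximal peaks and 40.0% of windows of 200 bp at the promoters of all protein-coding genes. NFY matches were in 30 of the 100 peaks, beside 30.0% and 26.4%, and E-boxes in 8, beside 8.06% and 5.30%. The CRE core was in 7, beside 10.9% and 6.53%. A match is a stretch of letters and does not show that the factor was bound.

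The ETS motif was found in 9 of the 100 member peaks, beside 9.50% of gene-proximal peaks and 3.89% of promoters, at *Ino80b*, *Ino80c*, *Ino80e*, *Kat5*, *Katna1*, *Kdm5a*, *Sirt3*, *Sirt6* and *Smarcad1*. NRF1 matches were in 6 (beside 4.04% and 1.59%), at *Ino80c*, *Kdm5c*, *Setd4*, *Sirt6*, *Sirt7* and *Smarcb1*. YY1, a partner of BAP1, had matches in 4 (beside 3.71% and 1.99%), at *Chd9*, *Kat5*, *Sirt1* and *Smarcd1*. FOXK, the motif of another group of BAP1 partners, had 1 match, at *Hdac10* (beside 2.09% and 1.56%), and ZNF143 had 1 at *Arid4b* (beside 0.477% and 0.237%).

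A TATA match was in 0 of 100 member peaks, which allows a share of up to 3.00% by the rule of 3 counts, or 3.70% by the upper bound of the Wilson interval, beside 2.41% of gene-proximal peaks and 8.28% of promoters. At this number a difference from gene-proximal peaks was not detectable. No motif of the 10 was found in 15 of the member peaks, and in *Arid2*, *Chd1l*, *Hdac8*, *Kat2a*, *Setd7* and *Sirt4* no peak held any. The same count is not given for all gene-proximal peaks, so it is not shown to be particular to the members. The most motifs in 1 peak were 4, in *Hdac5* (SP, CRE core, E-box and NFY) and *Kat5* (ETS, SP, YY1 and CRE core).

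**Figure D4:**
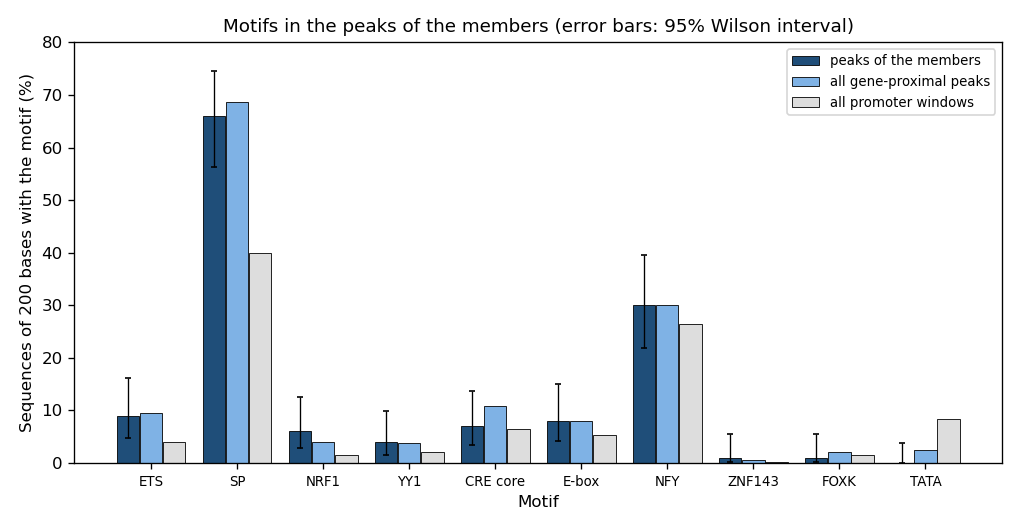
Share of sequences of 200 bases with each motif (y axis, percent) in the 100 peaks of the members, with 95% Wilson intervals as error bars, in all gene-proximal peaks and in promoter windows of all protein-coding genes. The values of all gene-proximal peaks lie within the intervals of the members for each of the 10 motifs, and SP is the most frequent in all 3 sets.

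Genes that work with these proteins under other symbols were mostly bound too. A list of 120 partner genes of the same complexes and enzyme classes, none of them a member, had 111 with a peak (92.5%, interval 86.4 to 96.0), beside 39.6% of all protein-coding genes. The list was chosen with earlier results of these data known, and no background weighted by CpG class is given for it. There were 52 with 2 or more (43.3%), beside 10.1% of all genes. Among bound genes only, it was 52 of 111 partners, beside 2256 of 8850. All 21 acetyltransferases and acetyltransferase subunits outside the Kat symbols were bound, among them *Crebbp* and *Ep300*. The same held for all 16 partner subunits of INO80, SRCAP and TIP60. It also held for all 10 demethylases and related genes, such as *Jarid2*, outside the Kdm symbols. The partners in NuRD, SIN3 and CoREST were bound at 20 of 22, and those of ISWI with other remodelers at 13 of 14. The methyltransferases and subunits of their complexes were bound at 20 of 23 and the BAF and PBAF subunits at 11 of 14. The 9 without a peak were *Actl6b*, *Bcl7a*, *Dpf3*, *Mta3*, *Gatad2b*, *Cecr2*, *Mll2*, *Ash1l* and *Nsd1*.

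**Figure D5:**
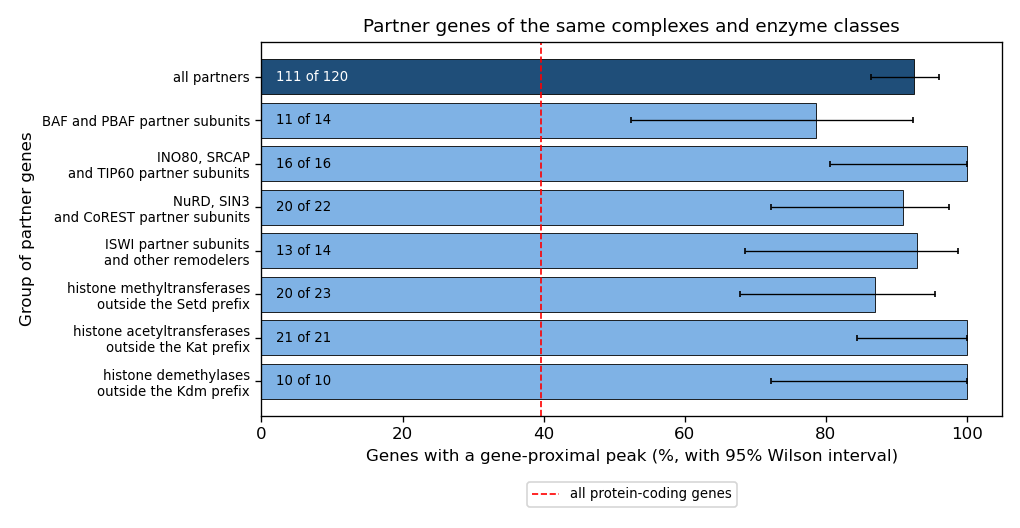
Share of partner genes with a gene-proximal peak (x axis, percent, with 95% Wilson intervals) by group (y axis), with the counts in the bars. The genes were chosen with earlier results of these data known. The groups of demethylases and methyltransferases also hold related genes and subunits. The dashed line marks the 39.6% of all protein-coding genes, and the lowest group, BAF and PBAF subunits, is at 78.6%.

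The choice of annotation decided the call of some members. With 1 TSS per gene, that of the longest transcript, 61 of 88 were bound (69.3%, beside 37.0% of all genes), and *Chd2*, *Chd9*, *Hdac3*, *Hdac5*, *Katnal1*, *Kdm2b*, *Setd3*, *Setd4*, *Sirt1*, *Smarcal1* and *Smarcb1* lost their peak. With RefSeq starts placed on mm9, a setting chosen after the data were seen, 52 of the 65 member symbols that could be placed were bound (80.0%), beside 41.5% of 17171 RefSeq protein-coding genes. In that set *Chd8* and *Hdac4* gained a peak and *Chd9*, *Setd5* and *Smarcd2* lost theirs, and the other 50 bound by RefSeq were bound in both.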

How the data were processed

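ChIP-Seq libraries were paired-end reads of 50 bp. The authors used Bowtie 1.0.0 to map the reads to mouse build mm9, and MACS 1.4.2 to call peaks against input DNA of the same cells, versions as in the submitters' processing notes. The deposited values are start and end positions in bp of 13164 peaks, which carry no counts, signal or score. The rule that joined the anti-BAP1 and anti-FLAG data is not given in the sources used here. The depth per sample is unknown, and 0 columns could not be matched to a sample.

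Peaks were placed on the GENCODE M1 annotation (NCBIM37), with 37273 genes and 22367 protein-coding genes without those of the mitochondrion. Coordinates were written counted from 1. A gene had a peak when the middle of a peak lay within 1 kb of any of its TSSs. Promoter groups joined TSSs within 1 kb. The CpG ratio covered 500 bp before and after the TSS of the longest transcript, with classes cut at 0.4 and 0.8. Motifs were searched as exact letters on both strands in the 200 bp of each peak, and in promoter windows of 200 bp. Intervals are 95% Wilson intervals, and an interval of order statistics for the median position.

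RefSeq promoter windows of 300 bases, given on another build, were matched to mm9 exactly, and 98.7% of 32851 were placed. No coordinate was converted between builds. They gave a start for 65 member symbols. The members, the list of 120 partners and the motifs were chosen with earlier results of these data known. Members are named, with positions for those without a peak, with 2 or more, farthest from the TSS or dependent on a setting. Sequences follow the first member of each family. The position for 1 member and the sequence of 1 peak are not reported here. The paper's table of dysregulated genes was not used here. Alternatives were windows of 500 bp, 2 kb and 5 kb, the edge of the peak, 1 TSS per gene, protein-coding TSSs, merging of peaks within 500 bp, 250 bp for the CpG ratio and 400 bp for motifs. RefSeq starts and the highest CpG ratio were added after seeing the data. Scripts were tested on simulated data. Python 3.11.15, numpy 2.4.6 and matplotlib 3.10.9 were used.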

Additional observations from a re-analysis of the deposited data

How the results depend on the processing

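Of 109 alternative values, 98 stayed within the interval of the value reported and 11 moved out of it. Many of the 109 are shares of families with few genes and wide intervals, where staying within the interval says little. With 1 TSS per gene, Setd fell from 90.9% to 72.7% and Smarc from 84.6% to 69.2%, both still within their intervals. With 1 TSS per gene the share of members with a peak was 69.3%, the share with 2 or more was 19.3% (8.37% of all genes), and that of the partners was 85.0%. The Kdm share was 100% with windows of 2 kb and 5 kb, and the Setd share 100% with 5 kb. The share with 2 or more peaks was 42.0% with 5 kb (13.7% of all genes) and 6.82% with peaks within 500 bp merged. The median CpG ratio of bound members was 0.823 as the highest over TSSs, in place of 0.770. In windows of 400 bp SP was in 79.0% of member peaks (79.9% of gene-proximal peaks) and NFY in 45.0% (42.1%). With the *Ino80* gene added or katanin left out, and with RefSeq starts, the members' share stayed within its interval. No paired analysis was possible because the data are 1 joined list of peaks. A stricter peak threshold could not be tried, since the list has no score, and no sample could be left out. Depth is unknown, so a gene without a peak is not shown to be unbound.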
